A study of Mus musculus with 21 samples.

Results

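RNA of cells collected as granulosa cells was compared between old mice that had received LRP1low human mesenchymal stem cells and old mice that had received no cells. The name is that of the labels, and granulosa markers were near or below the level of genes of other tissues in 3 of the 4 libraries, with values given after the opening. The libraries were chosen by their labels, and 4 of the 21 libraries of the series belong to the comparison, 2 of old mice given LRP1low cells (Aged + LRP1low) and 2 of old mice (Aged). All mice were female ICR mice, an outbred stock. The Aged mice were 18 months old and untransplanted, and the sources used here do not state a sham operation. The Aged + LRP1low mice were of the same age and had received umbilical cord mesenchymal stem cells (UC-MSCs) beneath the ovarian capsule 3 weeks before collection. These human cells had been sorted by flow cytometry for a low surface signal of LRP1, a large endocytic receptor of the LDL receptor family. Follicles were opened with a needle and granulosa cells were released with hyaluronidase from the cumulus-oocyte complexes, without a sort for granulosa cells. The number of mice behind a library is not given in the sources used here, so the p-values measure the spread between libraries. One Young library, from mice of 6 to 8 weeks, and 3 Aged + LRP1high libraries served as references, and 1 Aged + Unsorted library entered the model as well.

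Granulosa cells line the follicle and nurse the oocyte. They answer follicle-stimulating hormone (FSH) through its receptor, turn androgens into estradiol, and secrete inhibins, activins and follistatin. After ovulation they take on a luteal program, in which cholesterol is taken up or made, carried into mitochondria by Star, cleaved to pregnenolone by Cyp11a1 and turned into progesterone by Hsd3b1. Both programs depend on mitochondria, whose own genome encodes 13 proteins of the respiratory chain, 22 transfer RNAs and 2 ribosomal RNAs.

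The values are FPKM, which divides a gene's fragments by its length and by the size of its library, and TPM, which gives every library the same total. A family of 10 genes related to Gm10800, which resemble repeated DNA, took 93.4% and 95.4% of the deposited TPM in the 2 Aged libraries and 66.8% and 97.0% in the 2 Aged + LRP1low libraries, against 7.84% in the Young library. Every other gene was therefore computed on 2 scales, the FPKM as deposited and the TPM rescaled to the same total after the family was removed. The text quotes 1 or both of them for a gene. The depth was 0.956 and 1.101 aligned gigabases in the Aged libraries and 0.335 and 0.903 in the Aged + LRP1low libraries. A single read of 150 bases, on a transcript 1 kilobase long, was worth 0.157, 0.136, 0.448 and 0.166 FPKM in the same order. Values of this size are called the level of single reads, which is lower for longer and higher for shorter transcripts.

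**Figure D1:**
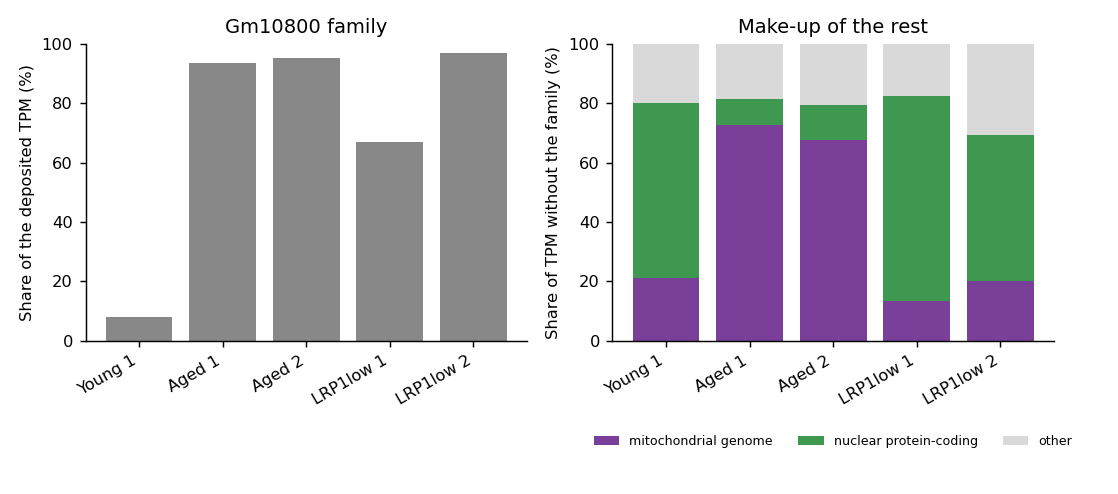
Share of the deposited TPM taken by the 10 genes of the Gm10800 family (left, percent) and make-up of the TPM left without them (right, percent) in the Young library and the 4 libraries compared. In the right panel the mitochondrial genome fills 72.7% and 67.6% of the Aged bars and 13.3% and 20.1% of the Aged + LRP1low bars, and nuclear protein-coding genes fill 8.85% and 11.9% against 69.0% and 49.1%.

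The genes of the family share sequence with each other, and reads can be placed on several of them. Gm10800 lies on chromosome 2 of GRCm38 at chr2:98666547-98667301 on the minus strand, and Gm10717 on chromosome 9 at chr9:3025417-3033289 on the plus strand. Their longest common stretch in the GENCODE transcripts is 75 bases long and runs from base 316 to base 390 of the 660 bases of the Gm10800 transcript. It is printed because the smallest p-value of the comparison belongs to this family.
Gm10800 and Gm10717: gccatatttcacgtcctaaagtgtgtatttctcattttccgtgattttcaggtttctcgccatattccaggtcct
A read that matches only within such a stretch cannot be given to either gene. Reads of 150 bases are longer than the stretch, and how many were affected was not tested. Gm10800 itself was at 925270 and 937196 FPKM in the Aged libraries and at 441081 and 928425 FPKM in the Aged + LRP1low libraries, with a log2 difference of -0.54 ± 0.57 (SE). Gm10717 had a listed value of 0 in each Aged library and was at 2031 and 1910 FPKM in the Aged + LRP1low libraries, and it had the smallest p-value of the comparison (adjusted p = 0.0965, limma). Of the sequence words of 31 bases in its transcripts, 55.3% also occur in transcripts of other genes, and another member, Gm10718, was at 7909 and 7566 FPKM in the Aged libraries and at 3256 and 0 FPKM in the others. These levels are therefore uncertain.

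The label was checked against granulosa cell markers. On the rescaled scale the 12 granulosa markers summed to 18.2 and 32.5 TPM in the Aged libraries, to 766 and 217 TPM in the Aged + LRP1low libraries, and to 4319 TPM in the Young library. The Aged libraries therefore hold little granulosa cell message, and Inha, the alpha subunit of inhibin, had a value of 0 in each of them against 703 FPKM in the Young library. The FSH receptor gene Fshr was at 0 and 0.297 FPKM in the Aged libraries and at 0 and 0.266 FPKM in the Aged + LRP1low libraries, against 23.2 FPKM in the Young library. Foxl2, the transcription factor that maintains granulosa cell identity, was at 0.0964 and 0.0837 FPKM against 0 and 2.52 FPKM.

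Vomeronasal and olfactory receptor genes, whose main site of expression is the nose, served as a yardstick for a low level. Of 1422 such genes, 87.1% and 91.6% were above 0 in the Aged libraries, 38.2% and 85.7% in the Aged + LRP1low libraries and 35.3% in the Young library. Their mean level was 5.02 and 6.71 TPM in the Aged libraries, 1.45 and 12.05 TPM in the Aged + LRP1low libraries and 0.157 TPM in the Young library. Granulosa markers stood at 0.303 and 0.403 times this mean in the Aged libraries, at 44.0 and 1.499 times it in the Aged + LRP1low libraries and at 2299.5 times it in the Young library. Granulosa marker message was thus clear of the receptor genes in replicate 1 of Aged + LRP1low, close to them in replicate 2 and below them in both Aged libraries, so the markers go against the label in these 3 libraries. In replicate 1 the granulosa sum of 190 FPKM came mostly from Fst, Inhbb, Inhba and Inha, at 102, 31.05, 29.4 and 26.04 FPKM. Fshr and Foxl2 were at 0 there. The luteal markers of replicate 1, given with their values further on, were far above its granulosa markers.

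The same ratio was formed for 28 gene lists, all lists but the mitochondrial genome and the Gm10800 family. Only 3 and 5 of the 28 lists lay above the receptor genes in the 2 Aged libraries, and the highest reached 1.54 and 1.73 times their mean. In the Aged + LRP1low libraries 26 and 23 of the 28 lay above them, and 25 and 8 lay more than 5 times above. The 8 lists in replicate 2 were those of luteal cells, oocytes, steroid hormone synthesis, cholesterol synthesis and uptake, FSH and LH receptor signalling, the nuclear respiratory chain, antioxidant enzymes and cytosolic ribosomal proteins. A list mean can be carried by 1 gene. In replicate 2 Sod1 held 3586 of the 4386 TPM of antioxidant enzymes. Insig1 held 6200 of the 7700 TPM of cholesterol synthesis and uptake. Foxo3 held 709 of the 1220 TPM of FSH and LH receptor signalling, and Cox7c 2061 of the 6196 TPM of the respiratory chain. All 28 lists lay above the receptor genes in the Young library. The list of cytosolic ribosomal proteins, which all cells express, was at 0.863 and 1.02 times the receptor mean in the Aged libraries. Each difference from Aged given here is thus a difference from libraries with little nuclear message of any list, and whether these libraries can serve as controls was not tested. In bulk samples fewer cells of a type and less RNA per cell cannot be told apart, and this holds for every level given here.

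**Figure D2:**
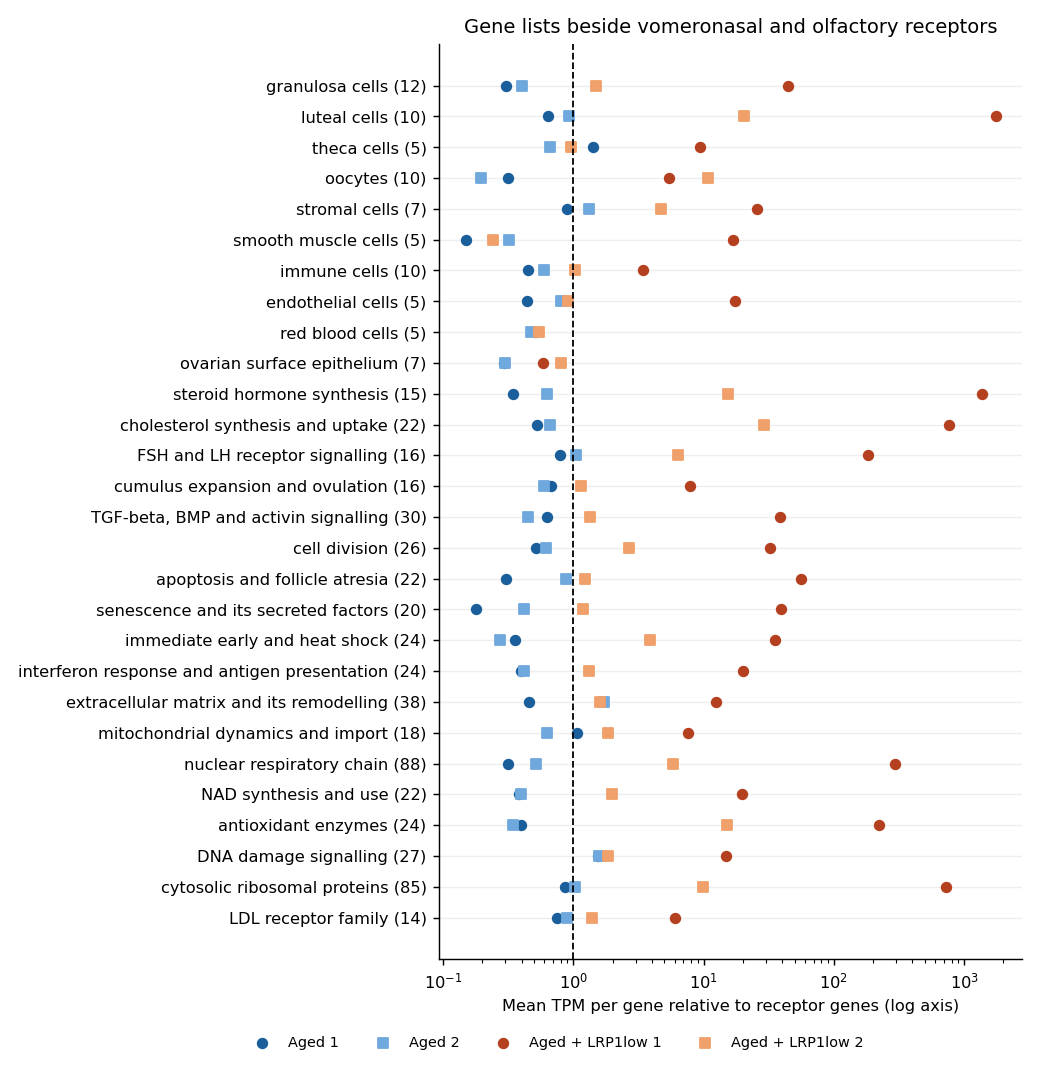
Mean TPM per gene of 28 gene lists (number of genes in brackets), without the Gm10800 family, relative to the mean of 1422 vomeronasal and olfactory receptor genes in the same library (log axis, dashed line at 1). The Aged libraries lie mostly below the line, with medians over the lists of 0.455 and 0.607, and the Aged + LRP1low libraries have medians of 22.9 and 1.72; the red blood cell list, at 0 in replicate 1 of Aged + LRP1low, has no point there.

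The question of the comparison was which genes differ in cells collected as granulosa cells from old mice after LRP1low transplantation. No gene passed an adjusted p-value under 0.05 with a fold change over 1.5 on the FPKM scale (0 of 13002 genes tested, 0%), nor on the rescaled TPM scale (0 of 44848, 0%). At an unadjusted p-value under 0.05 with the same fold, 397 genes (3.05%) were higher and 96 (0.738%) were lower in Aged + LRP1low by FPKM, and 1644 (3.67%) and 859 (1.92%) by TPM. The median log2 difference over the genes tested was 0.31 by FPKM and 0.00 by TPM. Both Aged + LRP1low libraries lay above both Aged libraries for 3969 genes (30.5%) and below them for 903 (6.95%) by FPKM, and for 5320 (11.9%) and 4017 (8.96%) by TPM. All counts of genes without overlap are read against these shares, which were larger for genes at a high level. Of 977 genes with a mean of at least 10 FPKM over the 4 libraries, 660 were higher without overlap and 38 lower. The median log2 difference was 1.73 for 2255 genes with a mean of at least 10 FPKM over the 9 libraries. The gene lists were not compared with genes of like level. Among protein-coding genes alone the shares higher without overlap were 34.8% by FPKM and 19.6% by TPM. In the Gm10800 family 1 gene was higher and 6 of 10 were lower without overlap by FPKM.

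The libraries of a group were far apart. Spearman's rho over 10187 protein-coding genes was 0.533 between the 2 Aged libraries but 0.228 between the 2 Aged + LRP1low libraries, which was within the range of 0.203 to 0.342 between an Aged and an Aged + LRP1low library. Genes are not independent replicates, and the values of low genes share depth and background. With replicate 2 of Aged + LRP1low left out, 777 genes (5.98%) were called higher and 7 (0.0538%) lower by limma, and with replicate 1 left out 0 were called. By rescaled TPM 0 were called in either case. The lone library is then assumed to vary like the other groups.

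The 12 genes with the smallest p-values among those higher in both Aged + LRP1low libraries, with a mean of at least 10 FPKM, were Gm10717, Rpl22l1, Hspe1, Nap1l1, 0610009B22Rik, Snrnp27, Sall4, Pigp, Calm2, Cox6c2, Uqcc2 and Sec61b. None passed the adjusted test. Hspe1, the co-chaperone of the mitochondrial chaperonin, was at 0.251 and 0.283 FPKM in the Aged libraries and at 85.6 and 33.7 FPKM in the Aged + LRP1low libraries, a log2 difference of 5.44 ± 0.66 (SE, adjusted p = 0.424, limma). Rpl22l1, a paralog of a protein of the large ribosomal subunit, was at 0.489 and 0.190 FPKM against 14.5 and 26.9 FPKM, a log2 difference of 3.96 ± 0.44. Both genes were at the level of single reads in the Aged libraries and well above it in the others, below the 568 and 751 FPKM of the Young library.

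Nap1l1, a histone chaperone, was at 0.845 and 1.62 FPKM in Aged and at 57.9 and 23.5 FPKM in Aged + LRP1low. Snrnp27, a component of the spliceosome, was at 0.811 and 0.332 FPKM against 319 and 47.5 FPKM. On the rescaled scale Snrnp27 was at 1286 and 1480 TPM in the 2 Aged + LRP1low libraries, so that its replicates were closer to each other than by FPKM. The reverse held for Rpl22l1, at 58.2 and 838 TPM. Hspe1 was at 345 and 1049 TPM and Nap1l1 at 233 and 732 TPM, with replicate 2 the higher in place of replicate 1. Calm2, one of the calmodulin genes, had a value of 0 in each Aged library and was at 103 and 16.4 FPKM, or 413 and 511 TPM, in Aged + LRP1low. Pigp, of glycosylphosphatidylinositol anchor synthesis, Uqcc2, an assembly factor of respiratory complex III, and Cox6c2, annotated as a processed pseudogene, were at 0 there too. Their levels in Aged + LRP1low were 645 and 36.9 FPKM for Pigp, 74.5 and 6.58 FPKM for Cox6c2 and 224 and 11.2 FPKM for Uqcc2. Cox6c2 shares 61.7% of its sequence words with other genes, mainly Cox6c, and is uncertain. Among the other 10 genes outside the Gm10800 family the share ran from 2.48% for 0610009B22Rik to 40.3% for Pigp.

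Sall4, a transcription factor of oocytes and pluripotent cells, stood apart in this set because it was low in the Young library. It was at 0.0441 and 0.532 FPKM in Aged, at 36.1 and 37.2 FPKM in Aged + LRP1low and at 0.805 FPKM in Young, with a log2 difference of 4.89 ± 0.98 (SE, adjusted p = 0.904, limma). By rescaled TPM its Aged + LRP1low libraries were further apart, at 145 and 1157 TPM. Of the 12 genes, 9 are among those called when replicate 2 of Aged + LRP1low was left out, and Sall4, Calm2 and Sec61b are not.

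**Figure D3:**
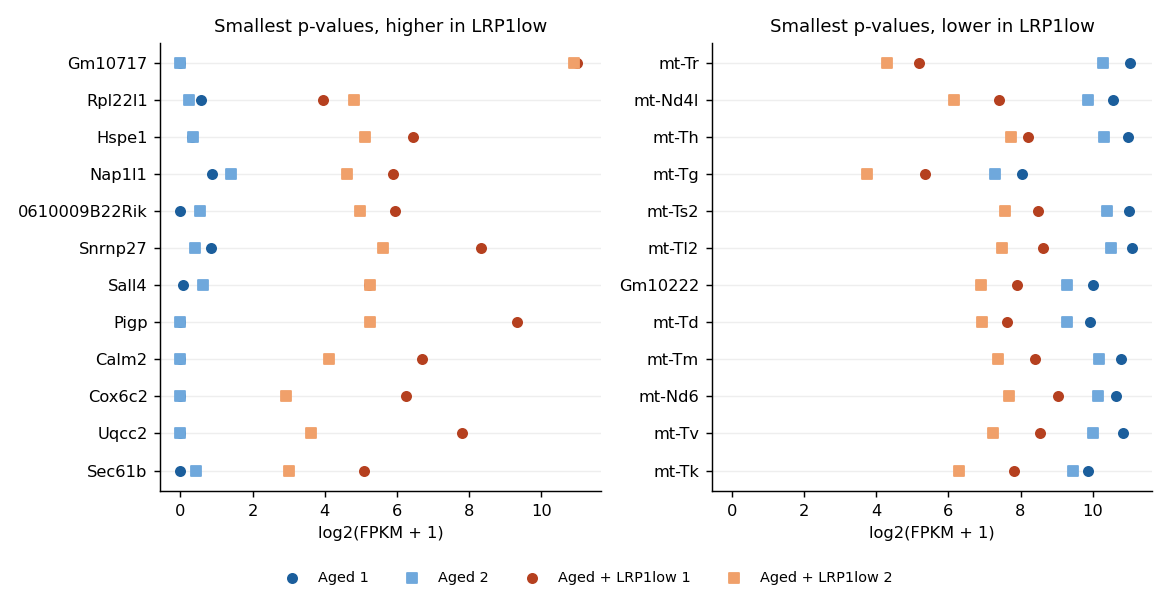
FPKM on the log2(FPKM + 1) scale of the 12 genes with the smallest p-values in each direction in the 4 libraries (circles replicate 1, squares replicate 2, blue Aged, red and orange Aged + LRP1low). The groups do not overlap for any of the 24 genes, as the rule for naming them required; in the left panel most Aged points lie near 0, and in the right panel mt-Tr has the widest distance between the groups, with a log2 difference of -5.91.

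The 12 genes with the smallest p-values among those lower in Aged + LRP1low were 9 transfer RNA genes of the mitochondrial genome, mt-Nd4l and mt-Nd6 of respiratory complex I, and Gm10222. The first of them was mt-Tr, the transfer RNA for arginine. It lies on the mitochondrial chromosome of GRCm38 at chrM:9808-9875 on the plus strand, between protein genes, and its 68 bases are given here with the anticodon in capitals because it had the smallest p-value in this direction.
mt-Tr: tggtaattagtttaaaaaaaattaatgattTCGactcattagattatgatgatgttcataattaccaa
The level of mt-Tr was 2106 and 1246 FPKM in the Aged libraries and 35.8 and 18.7 FPKM in the Aged + LRP1low libraries, against 18.7 FPKM in the Young library. The groups were far apart, and the log2 difference was -5.91 ± 0.88 (SE, adjusted p = 0.582, limma). In the Aged + LRP1high libraries mt-Tr was at 121, 56.1 and 20.5 FPKM. The first and second of these values lie above both Aged + LRP1low libraries and the last between them.

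The protein gene mt-Nd4l begins next to mt-Tr, at chrM:9877-10173, and encodes a small membrane subunit of complex I. It was at 1513 and 929 FPKM in Aged and at 168 and 70.5 FPKM in Aged + LRP1low, a log2 difference of -3.43 ± 0.69 (SE, adjusted p = 0.904, limma). Gm10222, an unprocessed pseudogene on chromosome 1 at chr1:24612407-24612700 on the minus strand, is a nuclear copy of mt-Nd4l. All 294 bases of its transcript occur in the mt-Nd4l transcript without a mismatch, and the first 60 are shown to make clear that reads cannot be split between the pair.
mt-Nd4l and Gm10222: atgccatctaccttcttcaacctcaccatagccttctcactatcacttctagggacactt
The values of Gm10222, 1024 and 625 FPKM against 237 and 119 FPKM, therefore add no separate gene to the set. No sequence word of the 9 transfer RNA genes was found in other GENCODE transcripts, and the rest of the genome was not searched.

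Over the whole mitochondrial genome the median difference was larger for transfer RNA genes than for protein genes. Of the 22 transfer RNA genes, 21 were lower without overlap in Aged + LRP1low by FPKM and 22 by TPM. By FPKM 17 had an unadjusted p-value under 0.05 (limma), against 0.738% of all genes, with a median log2 difference of -2.32. Among the transfer RNA genes named above, only mt-Tr and mt-Tg stayed under 0.05 by TPM (unadjusted p = 0.00166 and 0.0290, limma). The median level of the 22 genes was 20398 and 19893 TPM in Aged, 1569 and 5197 TPM in Aged + LRP1low and 337 TPM in Young. Of the 13 protein genes, 6 were lower without overlap by FPKM and 12 by TPM, with a median log2 difference of -1.40 by FPKM. An unadjusted p-value under 0.05 (limma) was reached by 4 of them by FPKM and by 2 by TPM. The exception by TPM was mt-Co2, a subunit of cytochrome c oxidase, at 11302 and 11240 TPM in Aged and at 23837 and 9615 TPM in Aged + LRP1low. The large counts are set against background shares of 6.95% by FPKM and 8.96% by TPM for all genes. These genes lie on 1 molecule whose transcripts are cut from long precursors, so they are not independent of each other. A read of 150 bases is longer than a transfer RNA gene such as mt-Tr, with 68 bases. The values of the transfer RNA genes can therefore hold reads of precursors, and mature transfer RNAs were not measured apart.

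Whether the summed protein genes overlapped between the groups depended on the scale. Summed over the 13 genes, FPKM was 18128 and 11847 in Aged and 16597 and 2644 in Aged + LRP1low, so the groups overlapped. The sum of TPM was 244377 and 226543 in Aged and 66878 and 82334 in Aged + LRP1low, without overlap. Protein genes and transfer RNA genes stood at nearly the same level in the Aged libraries, with a ratio of median transfer RNA to median protein gene of 1.00 and 1.09. The ratio was 0.446 and 0.815 in Aged + LRP1low and 0.0531 in Young. It was 0.596, 1.20 and 0.328 in Aged + LRP1high and 1.07 in Aged + Unsorted, so ratios like those of Aged also occurred after transplantation. What set this ratio was not tested.

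**Figure D4:**
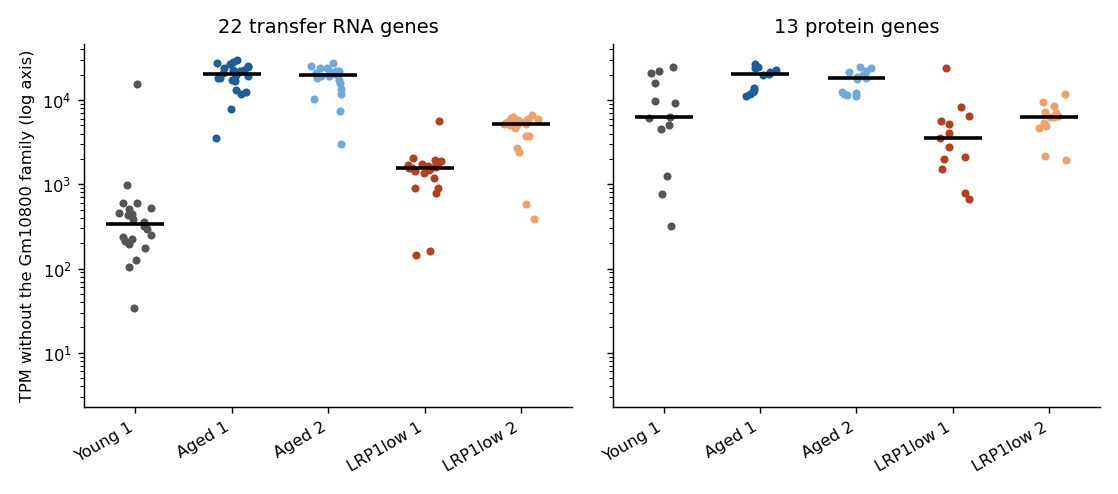
TPM without the Gm10800 family (log axis) of the 22 transfer RNA genes (left) and the 13 protein genes (right) of the mitochondrial genome in the Young library and the 4 libraries compared; points are genes and black lines medians. The medians of both panels are alike in each Aged library (20398 and 20397 TPM in replicate 1), whereas the transfer RNA median of the Young library, 337 TPM, lies below its protein median of 6342 TPM.

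Luteal markers and genes of steroid hormone synthesis were higher in both Aged + LRP1low libraries than in the Aged libraries for part of their members. Of the 9 luteal markers tested, 7 were higher without overlap in Aged + LRP1low and none was lower, with a median log2 difference of 4.57. All genes had a share of 30.5% higher and a median of 0.31. Among genes with a mean of at least 10 FPKM over the 4 libraries, 660 of 977 were higher without overlap. Of the 13 genes of steroid hormone synthesis tested, 6 were higher without overlap and none lower, with a median of 2.32. None passed the adjusted test, and 2 in each list had an unadjusted p-value under 0.05, the same 2 genes, Cyp11a1 and Akr1c18, which both lists hold. The filter on low values used the mean of all 9 libraries, so a gene could pass through the group in which it was high.

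Cyp11a1, which cleaves the side chain of cholesterol, was at 0 and 0.0497 FPKM in the Aged libraries and at 3503 and 42.2 FPKM in the Aged + LRP1low libraries. On the rescaled scale both were above the Young library, with 14117 and 1314 TPM against 1158 TPM. The log2 difference was 8.57 ± 3.45 (SE, adjusted p = 0.904, limma). The gene lies at chr9:58006411-58027023 on the plus strand of GRCm38. The 250 bases before one of its RefSeq starts, at chr9:58014702-58014951 on the plus strand of GRCm38.p6, are shown as an example of a promoter of the steroid genes, with AGGTCA, the core letters read by steroidogenic factors of the nuclear receptor family, in capitals.
Cyp11a1: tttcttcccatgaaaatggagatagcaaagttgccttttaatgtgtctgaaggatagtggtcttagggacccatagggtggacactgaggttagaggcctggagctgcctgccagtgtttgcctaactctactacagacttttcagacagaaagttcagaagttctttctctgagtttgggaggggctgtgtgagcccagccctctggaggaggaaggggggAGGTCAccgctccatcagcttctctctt
AGGTCA was searched on both strands. Of the 15 steroid genes, 10 had a promoter in the RefSeq table and 3 of these, Cyp11a1, Cyp19a1 and Nr5a2, held the letters before at least 1 start, as did 15.8% of 27025 genes. A match is a description of these letters and not a binding site.

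Hsd3b1, which makes progesterone, was at 0 and 0.567 FPKM in Aged and at 861 and 4.97 FPKM in Aged + LRP1low. Fdx1, the ferredoxin that passes electrons to Cyp11a1, was at 0.240 and 0.375 FPKM against 1592 and 12.3 FPKM. Star, which carries cholesterol into mitochondria, was at 0 and 0.243 FPKM against 176 and 2.98 FPKM. Each of these genes was high in replicate 1 and far lower in replicate 2, where it was still above both Aged libraries. Akr1c18, which breaks down progesterone in the regressing corpus luteum, was at 0.214 and 0.273 FPKM in Aged, at 890 and 21.4 FPKM in Aged + LRP1low and at only 1.23 FPKM in Young. Its log2 difference was 6.83 ± 2.65 (SE, adjusted p = 0.904, limma). Sfrp4, a secreted Wnt antagonist of luteal cells, was at 0.143 and 0.0940 FPKM against 561 and 3.64 FPKM.

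Cyp19a1 and Hsd17b1 of the estrogen branch, and Cyp17a1 of androgen synthesis, were low in all 4 libraries. Cyp19a1, the aromatase, was at 0 and 0.314 FPKM in Aged and at 0.302 and 0.168 FPKM in Aged + LRP1low, against 15.5 FPKM in Young. Hsd17b1, which makes estradiol from estrone, was at 0.497 and 0 FPKM against 0 in both Aged + LRP1low libraries and 108 FPKM in Young. Cyp17a1, the theca enzyme of androgen synthesis, was at 0.158 and 0.0360 FPKM against 0 and 0.524 FPKM. The levels of Cyp19a1, Hsd17b1 and Cyp17a1 overlapped between the groups and were at the level of single reads. Hsd17b7, which both the steroid and the cholesterol list hold, did not overlap. It was at 0.349 and 0.294 FPKM in Aged, at 378 and 2.60 FPKM in Aged + LRP1low and at 139 FPKM in Young.

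Of the 11 granulosa markers tested, 3 were higher without overlap and none lower, with a median log2 difference of 0.28, a share close to that of all genes. The 3 were Inhba and Inhbb, the subunits of activins, and Fst, the activin-binding protein follistatin. Fst was at 0.145 and 0.236 FPKM in Aged, at 102 and 0.666 FPKM in Aged + LRP1low and at 349 FPKM in Young. Inhba was at 0.224 and 0.251 FPKM against 29.4 and 0.841 FPKM, and Inhbb at 0.174 and 0 FPKM against 31.05 and 1.47 FPKM. Inha was at 26.04 FPKM in replicate 1 of Aged + LRP1low and at 0 in replicate 2. Replicate 1 thus held the activin and inhibin genes below the Young levels of 450, 528 and 703 FPKM for Inhba, Inhbb and Inha, and in replicate 2 they were at 1.47 FPKM or less.

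**Figure D5:**
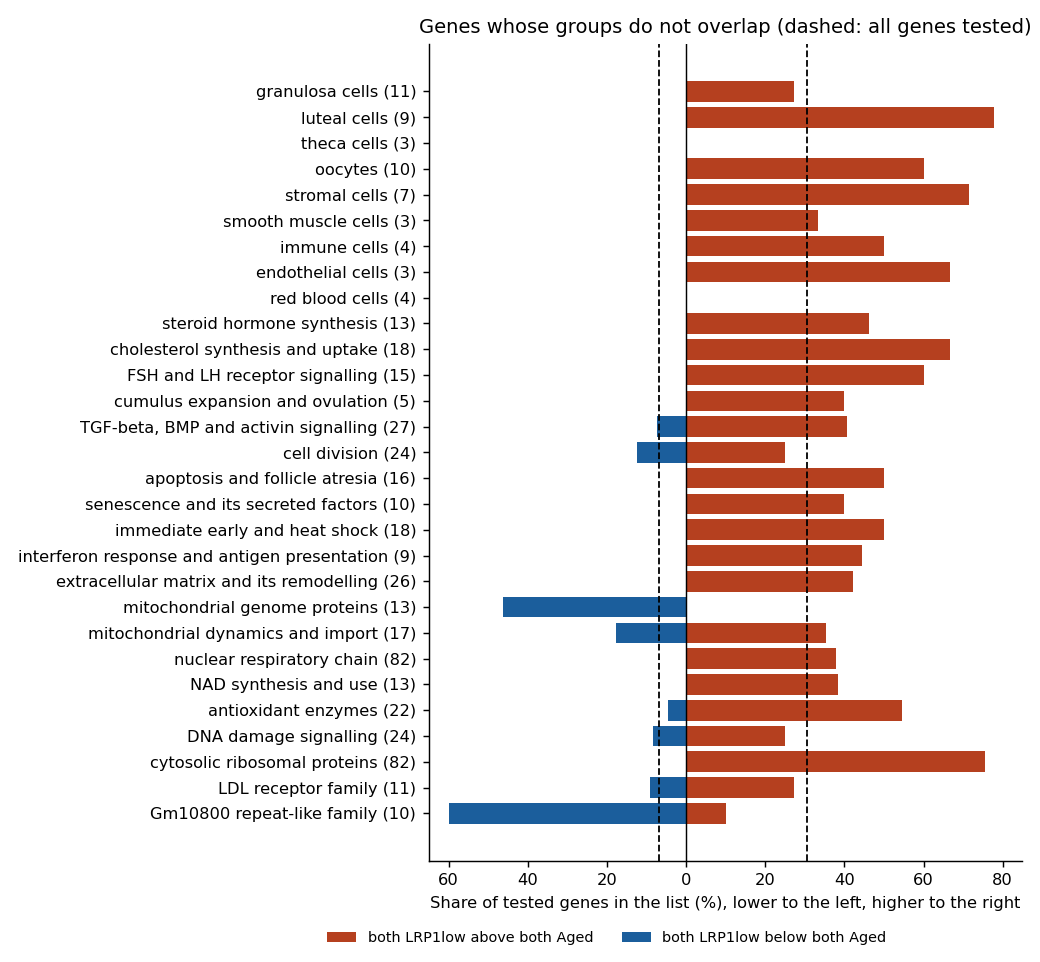
Share of the tested genes of each list (number in brackets, lists with at least 3) for which both Aged + LRP1low libraries lie above both Aged libraries (red, to the right) or below both (blue, to the left), by FPKM; dashed lines mark all genes tested, 30.5% and 6.95%. The longest bars to the right belong to luteal cells (7 of 9) and cytosolic ribosomal proteins (62 of 82), and those to the left to the Gm10800 family (6 of 10) and the mitochondrial genome proteins (6 of 13).

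Of the 18 genes of cholesterol synthesis and uptake tested, 12 were higher without overlap and none lower, and the median log2 difference was 2.89. Insig1, the sterol sensor that holds back cholesterol synthesis, was at 0.218 and 0.238 FPKM in the Aged libraries and at 4036 and 199 FPKM in the Aged + LRP1low libraries, and at 1424 FPKM in Young. On the rescaled scale it was at 2.94 and 4.56 TPM against 16264 and 6200 TPM, and the log2 difference by TPM was 11.07 ± 1.73 (SE, adjusted p = 0.381, limma). Both Aged + LRP1low libraries were above the 2611 TPM of the Young library. Hmgcs1, which makes the precursor of mevalonate, was at 0.559 and 0.534 FPKM against 383 and 6.70 FPKM. Sc5d, a late enzyme of the pathway, was at 0.125 and 0.249 FPKM against 179 and 23.4 FPKM.

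In FSH and luteinizing hormone (LH) receptor signalling, 9 of 15 tested genes were higher without overlap, with a median log2 difference of 0.74. Sgk1, a kinase downstream of FSH, was at 0.228 and 0.369 FPKM in Aged and at 667 and 5.99 FPKM in Aged + LRP1low. Lhcgr, the LH receptor, was at 0.301 and 0.597 FPKM against 78.8 and 0.262 FPKM, and its groups overlapped. Foxo3, a transcription factor that restrains follicle growth in the oocyte, was higher in replicate 2 than in replicate 1, at 0.192 and 0.175 FPKM against 7.58 and 22.8 FPKM. In the list of cumulus expansion and ovulation, 5 of 16 genes reached the filter, 2 were higher without overlap, and Vcan, the matrix proteoglycan versican, was at 0.185 and 0.349 FPKM against 3.56 and 2.40 FPKM. In TGF-beta, BMP and activin signalling 11 of 27 were higher and 2 lower, or 40.7% and 7.41% against 34.8% and 5.4% of protein-coding genes. Id2, a target of BMP signalling, had a value of 0 in each Aged library and was at 122 and 1.66 FPKM in Aged + LRP1low.

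Of the 82 genes of cytosolic ribosomal proteins tested, 62 were higher without overlap in Aged + LRP1low and none lower by FPKM, with a median log2 difference of 4.04 and 6 genes at an unadjusted p-value under 0.05. By TPM 64 of 85 were higher without overlap against 11.9% of all genes and 19.6% of protein-coding genes. By TPM 56 had an unadjusted p-value under 0.05, against 3.67% and 6.14%, and again none passed the adjusted test. The sum of the list was 368 and 584 TPM in Aged, 89082 and 10201 TPM in Aged + LRP1low and 108630 TPM in Young. Rps24, a protein of the small subunit, was at 0.419 and 0.410 FPKM against 1266 and 57.9 FPKM, a log2 difference of 7.59 ± 2.54 (SE, adjusted p = 0.904, limma). Rplp2, of the stalk of the large subunit, was at 0 and 0.198 FPKM against 1108 and 1.52 FPKM, so replicate 2 was near single reads for some members. Ribosomal protein genes have many processed pseudogenes, and their reads can be divided among copies.

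Of the 82 nuclear genes of the respiratory chain tested, 31 were higher without overlap and none lower, with a median log2 difference of 1.06, and 41 of the 88 genes of the list were listed at 0 in both Aged libraries. Cox7c, a subunit of cytochrome c oxidase, was at 0.320 and 0.450 FPKM in Aged and at 990 and 66.2 FPKM in Aged + LRP1low. Cox6c, of the same complex, was at 0.479 and 0.148 FPKM against 917 and 17.2 FPKM. Atp5g3, of the membrane ring of ATP synthase, was at 0 and 0.263 FPKM against 864 and 2.88 FPKM. The share of the list without overlap, 37.8%, was near the 30.5% of all genes and the 34.8% of protein-coding genes, and by TPM it was 30 of 87 against 11.9% and 19.6%.

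In the list of mitochondrial dynamics and import, 6 of 17 tested genes were higher and 3 lower without overlap, with a median log2 difference of 0.35. The shares were 35.3% and 17.6%, against 34.8% and 5.4% of protein-coding genes. The list holds the mouse orthologs of genes that the study measured in KGN, a human granulosa tumor cell line, with the NAD+ carrier taken here as Slc25a51. Mff, the receptor for the fission protein Dnm1l, was at 0.688 and 0.904 FPKM in Aged and at 7.78 and 0.647 FPKM in Aged + LRP1low, so its groups overlapped. Mfn1, which fuses outer membranes, was at 0.487 and 0.183 FPKM against 8.03 and 0.717 FPKM, and Mfn2 was listed at 0 in all 4 libraries. Tomm20, the import receptor of the outer membrane, was at 0.321 and 0.160 FPKM against 17.1 and 0.291 FPKM, overlapping. Timm17a, of the inner membrane translocase, was at 0.185 and 0.0972 FPKM against 11.4 and 1.13 FPKM, and its paralog Timm17b was at 0.756 and 0.274 FPKM against 0 and 0.127 FPKM. Slc25a51 was at 0.101 and 0.327 FPKM against 0.990 and 1.78 FPKM. The log2 differences of these genes ran from -0.49 for Timm17b to 2.17 for Timm17a, and none passed the test.

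Antioxidant enzymes included a gene that was high in both transplanted libraries. Of the 22 tested, 12 were higher without overlap and 1 lower, with a median log2 difference of 1.49. Sod1, the cytosolic superoxide dismutase, was at 0.288 and 0.157 FPKM in Aged, at 556 and 115 FPKM in Aged + LRP1low and at 1139 FPKM in Young. On the rescaled scale Sod1 was at 2241 and 3586 TPM in the 2 Aged + LRP1low libraries, and its log2 difference by TPM was 9.33 ± 1.46 (SE, adjusted p = 0.381, limma). Prdx1, a peroxiredoxin, was at 0.341 and 0.238 FPKM against 491 and 6.52 FPKM. Gpx1, Prdx5 and Nqo1 were listed at 0 in all 4 libraries. Among genes of NAD synthesis and use, 5 of 13 tested were higher without overlap. This share, 38.5%, was near the 34.8% of protein-coding genes. Nadk, the NAD kinase, was at 0.226 and 0 FPKM against 54.0 and 0.592 FPKM.

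In lists of stress and growth the share higher without overlap ran from 25% to 50%, on both sides of the 30.5% of all genes. Without overlap between the groups, 6 of 24 genes of cell division were higher and 3 lower, and Pcna, the clamp of DNA replication, was at 0.462 and 0.143 FPKM in Aged and at 76.0 and 7.67 FPKM in Aged + LRP1low. In DNA damage signalling 6 of 24 were higher and 2 lower. In apoptosis and follicle atresia 8 of 16 were higher, among them Cycs, cytochrome c, at 0.258 and 0.291 FPKM against 95.6 and 2.16 FPKM. In senescence and its secreted factors 4 of 10 were higher. Cdkn2b, an inhibitor of the cell cycle, was at 0 in the Aged and Young libraries and at 170 and 0.195 FPKM in Aged + LRP1low, a difference carried by replicate 1.

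In the list of immediate early and heat shock genes 9 of 18 were higher without overlap, and Hsp90aa1, a chaperone, was at 0.576 and 0.840 FPKM in Aged and at 233 and 25.3 FPKM in Aged + LRP1low. Its levels in the transplanted libraries on the rescaled scale were alike, 939 and 787 TPM. Fos was at 0 and 0.129 FPKM against 8.10 and 0.131 FPKM, far below the 359 FPKM of the Young library. In interferon response and antigen presentation 4 of 9 were higher, and B2m, the light chain of class I molecules, was at 0 in each Aged library and at 54.5 and 4.96 FPKM in the others. In extracellular matrix and its remodelling 11 of 26 were higher. Nid2, a basement membrane protein, went the other way in 1 library, with 0 and 15.2 FPKM in Aged against 0 and 0.204 FPKM.

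Markers of other ovarian cells were summed as well, and none passed the adjusted test. The 10 oocyte markers summed to 15.9 and 13.02 TPM in Aged and to 78.8 and 1305 TPM in Aged + LRP1low, and 6 of 10 were higher without overlap by FPKM. Dppa3, a maternal factor of oocytes and early embryos, was at 0.349 and 0 FPKM against 11.04 and 13.1 FPKM, a log2 difference of 3.49 ± 0.59 (SE, adjusted p = 0.720, limma). By rescaled TPM its Aged + LRP1low libraries were further apart, at 44.5 and 408 TPM. H1foo, the oocyte linker histone, was at 0.187 and 0 FPKM against 4.89 and 6.40 FPKM. Oosp1, a secreted oocyte protein, was at 374 TPM in replicate 2 of Aged + LRP1low and at 0 in the other 3 libraries. Oocyte message was thus higher in replicate 2, in which the granulosa sum was lower, and Sall4 and Foxo3, which oocytes also express, lie beside it. The part of oocyte RNA in these values was not tested.

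The luteal sum was 31.8 and 62.1 TPM in Aged and 25414 and 2467 TPM in Aged + LRP1low, against 2181 TPM in Young. Stromal markers summed to 31.4 and 61.5 TPM against 261 and 395 TPM, and 5 of 7 were higher without overlap by FPKM and 3 of 7 by TPM. Endothelial markers summed to 10.98 and 27.1 TPM against 126 and 55.0 TPM. Of those tested, 2 of 3 were higher without overlap by FPKM and 2 of 5 by TPM. Smooth muscle markers summed to 3.74 and 10.8 TPM against 123 and 14.7 TPM, immune markers to 22.6 and 39.8 TPM against 49.7 and 125 TPM, and theca markers to 35.3 and 22.3 TPM against 68.3 and 57.3 TPM. By FPKM 1 of 3 smooth muscle, 2 of 4 immune and 0 of 3 theca markers tested were higher without overlap. The ovarian surface epithelium list was at 10.3 and 14.1 TPM against 5.90 and 67.7 TPM and the red blood cell list at 12.6 and 16.0 TPM against 0 and 32.8 TPM, both overlapping by TPM, and 0 of 1 and 0 of 4 of their tested members were apart. For the 8 lists whose sums did not overlap by TPM, the two-sided exact permutation test of 2 against 2 libraries gave p = 0.333, the smallest it can give. By FPKM the theca and smooth muscle sums overlapped and the surface epithelium sums did not, at 0.763 and 0.737 FPKM against 1.47 and 2.17 FPKM. Without replicate 1 of Aged + LRP1low the smooth muscle difference was 0.049 FPKM in place of 15.03 FPKM. In replicate 2 the theca, smooth muscle and endothelial lists lay below the receptor mean, at 0.951, 0.244 and 0.914 times it, and the theca and immune differences change sign with quantile normalization. The luteal sum exceeded the granulosa sum in all 4 libraries, whereas in the Young library the granulosa sum was the larger. In the Aged libraries both lists lay below the receptor mean, so their order there only compares low values. The luteal list was at 0.633 and 0.925 times this mean and the granulosa list at 0.303 and 0.403 times it. The part of luteal or other cells in the differences was not tested.

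Lrp1, the mouse gene of the receptor used to sort the human cells, was at 0.275 and 0.0361 FPKM in Aged, at 2.31 and 0.0574 FPKM in Aged + LRP1low and at 15.0 FPKM in Young. The reads were aligned to the mouse, so these values say nothing on the human cells. In the LDL receptor family 3 of 11 tested genes were higher and 1 lower without overlap. The shares were 27.3% and 9.09%, against 34.8% and 5.4% of protein-coding genes. Lrp8, a receptor for reelin, was at 0.205 and 0.0907 FPKM against 1.53 and 1.73 FPKM.

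Aged + LRP1low was also set against Aged + LRP1high, the mice that received the UC-MSCs with a high LRP1 signal. No gene was called by limma (0 of 13002, 0%), and at an unadjusted p-value under 0.05 there were 131 (1.01%) higher and 538 (4.14%) lower genes in Aged + LRP1low by FPKM, and 500 (1.11%) and 2219 (4.95%) by TPM. The 3 Aged + LRP1high libraries were also far apart from each other. Insig1 was at 342, 26.6 and 6712 FPKM, Cyp11a1 at 1341, 0.683 and 11.1 FPKM, and Sod1 at 56.5, 7.62 and 522 FPKM in Aged + LRP1high, ranges that overlap those of Aged + LRP1low. Rpl22l1 was at 0.340, 0.420 and 0.268 FPKM in Aged + LRP1high, below both Aged + LRP1low libraries, and Hspe1 was at 0.549, 0.253 and 2.19 FPKM. These 2 genes were named for their p-value against Aged, so their lower level in Aged + LRP1high is given as a value.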

How the data were processed

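For each library the authors deposited coverage (mean read depth, a signal), FPKM and TPM per gene. The submitters' processing notes name HISAT2 2.2.1 and StringTie 1.3.3b. The notes name mm9, but the deposited coordinates are those of GRCm38 in GENCODE. The methods describe Smart-seq2 libraries and the labels a stranded kit, and whether strand was used in counting is not given in the sources used here. The deposited FPKM and TPM were summed over repeated identifiers. Depth was taken from the coverage that 1 FPKM corresponded to in genes of a single exon. Read counts were not used, and no counting interval is given.

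The main test used limma 3.58.1 (R 4.3.3) on log2(FPKM + 1), a scale that understates folds of low genes. All 9 granulosa libraries in 5 groups entered the fit (4 residual degrees of freedom), and genes were kept where their FPKM averaged 1 or more over these libraries. Calls needed a Benjamini-Hochberg adjusted p-value under 0.05 and a fold over 1.5. TPM rescaled without the Gm10800 family was tested likewise. The fit was tested on simulated data. Sequences came from GENCODE transcripts and RefSeq promoters of GRCm38.p6. Named genes were the 12 smallest p-values in each direction without overlap and with an average of 10 FPKM or more over the 4 libraries, up to 4 genes a list by mean FPKM, the orthologs of genes measured in KGN cells, Lrp1 and the family. Other list members were named after their values were seen. The comparison, the 30 gene lists and the tests were chosen with earlier results of these data known. Some members of the lists are not reported here.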

Additional observations from a re-analysis of the deposited data

How the results depend on the processing

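The number of genes called in Aged + LRP1low against Aged was 0 by FPKM. It was also 0 by TPM as deposited, by TPM without the Gm10800 family, without the filter, at a mean of 10 FPKM, with a variance trend and without the fold criterion. It was 1 with a pseudocount of 0.1 and with only the 2 groups compared, in both cases Gm10717 (higher), 3 with a pseudocount of 10 (all lower), and 9 with quantile normalization (1 higher, 8 lower). At an unadjusted p-value it was 493 (397 higher, 96 lower), and 669 against Aged + LRP1high. Leaving out 1 library gave 0 to 784 calls against Aged (0 to 777 higher, 0 to 7 lower) and 0 to 489 against Aged + LRP1high. The upper ends came without replicate 2 of Aged + LRP1low, and Gm10717 alone was called without replicate 2 of Aged + LRP1high. By rescaled TPM 0 were called without either Aged + LRP1low library (alternative added after seeing the data). The cause was not tested.

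With the replicate number as a block 0 genes were called. Deviations of same-numbered Aged and Aged + LRP1low libraries correlated at 0.00911. The Aged libraries hold little nuclear message, so this low value cannot show whether the libraries were paired.

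The 24 genes named by p-value kept their direction in every fit in which they were tested. The rule for naming them required groups without overlap by FPKM. The direction could therefore change only with TPM or quantile normalization, and its constancy in the other fits is no check. The summed theca markers differed by 7.50 FPKM (-6.54 with quantile normalization, -0.054 to 15.05 without 1 library) and the immune markers by 6.28 FPKM (-3.30 with quantile normalization). The red blood cell markers differed by -0.36 FPKM (2.10 by rescaled TPM, -0.886 to 0.167 without 1 library). The other marker sums kept their sign. The depth of 0.335 gigabases in replicate 1 of Aged + LRP1low limits low genes there.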
